A study of Mus musculus with 10 samples.

Results

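Cytokines, chemokines and the receptors that read them were followed in mouse testis after treatment with trichostatin A (TSA), an inhibitor of histone deacetylases. The genes were taken by name from the array's annotation: interleukins with their receptors and binding proteins, CC and CXC chemokines with their receptors, the tumour necrosis factor (TNF) family, interferons, colony stimulating factors, and Lif with its receptor. These were 130 of the 8841 genes with a single symbol on the array. They had 131 probes, of which 130 gave values, and the probe of Tnfrsf11a was empty on every array. The genes were picked by symbol and not by value, but the families were chosen with earlier results of these data known.

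The testes came from 15 male BALB/c mice (Balb-c in the labels), 9 weeks old, in 5 groups of 3. The control mice received only the carrier, dimethylsulfoxide and PBS, and were killed at 10 h. The TSA mice received 60 µg each in 1 subcutaneous injection and were killed at 2.5, 5, 7.5 or 10 h, so only the 10 h group matched the control in time. Each group's RNA was combined into 1 pool (n = 1) and read on 2 arrays, so the single pool per group limited the precision. The spread between the animals of a pool was not measured.

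Cytokines and chemokines are secreted proteins that cells use to signal over short distances, and each acts through receptors on the surface of the responding cell. Cytokine receptors mostly act through JAK kinases and STAT proteins or through NF-κB, and chemokine receptors are G-protein-coupled receptors that steer cell migration. In the testis, macrophages, Sertoli cells and Leydig cells are known to make several of these factors, Lif and Cxcl12 among them, and Cxcl12 acts on germ cells through Cxcr4 in mice.

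The promoters of 4 genes are shown because Lif had the largest called fold and the others are the chemokine receptors that were higher after TSA. They are RefSeq windows on GRCm38.p6 of 300 bases, and 97 of the 129 genes with values had such a window. Capitals mark matches on either strand to any of 3 motifs. These were the GC box, spelled GGGCGG, the TATA motif, spelled TATAAA, and the AP-1 motif, spelled TGANTCA. The Lif window is chr11:4257318-4257617 on the plus strand. The other windows lie on the minus strand, at chr1:128592250-128592549 for Cxcr4, chr9:114496495-114496794 for Ccr4 and chrX:101734098-101734397 for Cxcr3.
Lif: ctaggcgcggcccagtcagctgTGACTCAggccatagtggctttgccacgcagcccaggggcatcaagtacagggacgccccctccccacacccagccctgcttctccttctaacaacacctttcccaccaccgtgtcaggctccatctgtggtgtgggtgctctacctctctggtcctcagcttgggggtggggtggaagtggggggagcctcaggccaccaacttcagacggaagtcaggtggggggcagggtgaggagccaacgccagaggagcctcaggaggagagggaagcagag
Cxcr4: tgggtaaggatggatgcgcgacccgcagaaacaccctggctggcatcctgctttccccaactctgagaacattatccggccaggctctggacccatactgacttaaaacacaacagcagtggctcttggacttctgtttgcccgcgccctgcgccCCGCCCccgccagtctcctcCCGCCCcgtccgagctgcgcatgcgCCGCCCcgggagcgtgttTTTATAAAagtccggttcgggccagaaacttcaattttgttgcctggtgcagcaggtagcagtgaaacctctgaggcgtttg
Ccr4: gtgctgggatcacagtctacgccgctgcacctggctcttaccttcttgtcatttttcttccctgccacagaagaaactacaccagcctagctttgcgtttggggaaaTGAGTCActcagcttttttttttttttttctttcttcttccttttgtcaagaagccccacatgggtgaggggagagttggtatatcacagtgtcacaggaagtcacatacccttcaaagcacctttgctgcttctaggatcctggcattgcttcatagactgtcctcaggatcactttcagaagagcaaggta
Cxcr3: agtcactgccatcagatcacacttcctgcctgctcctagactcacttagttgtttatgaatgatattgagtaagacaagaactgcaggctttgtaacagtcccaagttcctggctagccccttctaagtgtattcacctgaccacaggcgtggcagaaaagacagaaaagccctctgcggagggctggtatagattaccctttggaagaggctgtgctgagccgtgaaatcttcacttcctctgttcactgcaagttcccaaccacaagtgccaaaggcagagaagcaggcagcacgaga

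Lif and Ccr4 each held 1 AP-1 match. Cxcr4 held 3 GC box matches and a pair of overlapping TATA matches, and Cxcr3 held none of the 3 motifs. Among 32851 mouse promoter windows of this length, 35.7% held the GC box, 13.6% the TATA motif and 7.81% the AP-1 motif. A match is a description of the letters and not of a bound factor.

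Intensities are linear, normalised and without a unit, and the median of each array was 1.00. After the dimmest 25% of probes were left out, 63 of the 130 probes with values remained (48.5%), against 7422 of 9897 for the whole array (75%). A gene that was dim in the control and bright after TSA could pass this filter through its TSA arrays alone, so counts over the 63 genes describe them and no more. A pair of measures was used: limma on the 5 pool means, which set the mean of the 4 TSA pools against the control pool, and a size rule with no p-value. The size rule asked for a 2-fold or larger difference, with the arrays of a TSA pool both beyond the 2 control arrays. Every fold uses the same control pool, so the 4 times are not independent of one another. The 5 h pool stood apart by liver transcripts: the summed liver markers were 229.9 and 228.7 on its arrays, against 19.9 to 23.0 on the other 8.

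In limma, 7 of the 63 genes passed an adjusted p under 0.05, all higher in TSA pools and none lower. Over all tested probes, 3.53% passed, 2.74% higher and 0.795% lower. The 7 genes were Lif, Cxcr4, Tnfrsf11b, Ccr4, Ccl8, Cxcr3 and Il3. Their calls rest on all 4 TSA pools together: none passed when any 1 TSA pool was left out. Of all tested probes only 3 to 7 passed then, against 262 with every pool. Without the 5 h pool the 7 genes had log2 folds between 0.73 and 1.14, and none passed (limma adjusted p between 0.0888 and 0.0911). The median log2 fold of the 63 genes was 0.12, with 37 above 0, against -0.02 over all tested probes. All 8 TSA arrays lay above both control arrays for 25 of the 63 genes (39.7%) and below both for 9 (14.3%). The same held above for 22.2% and below for 23% of all tested probes. At an unadjusted p under 0.05, limma gave 24 of the 63 genes (20 higher and 4 lower), against 28.3% of all tested probes (14.7% higher and 13.7% lower).

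**Figure D1:**
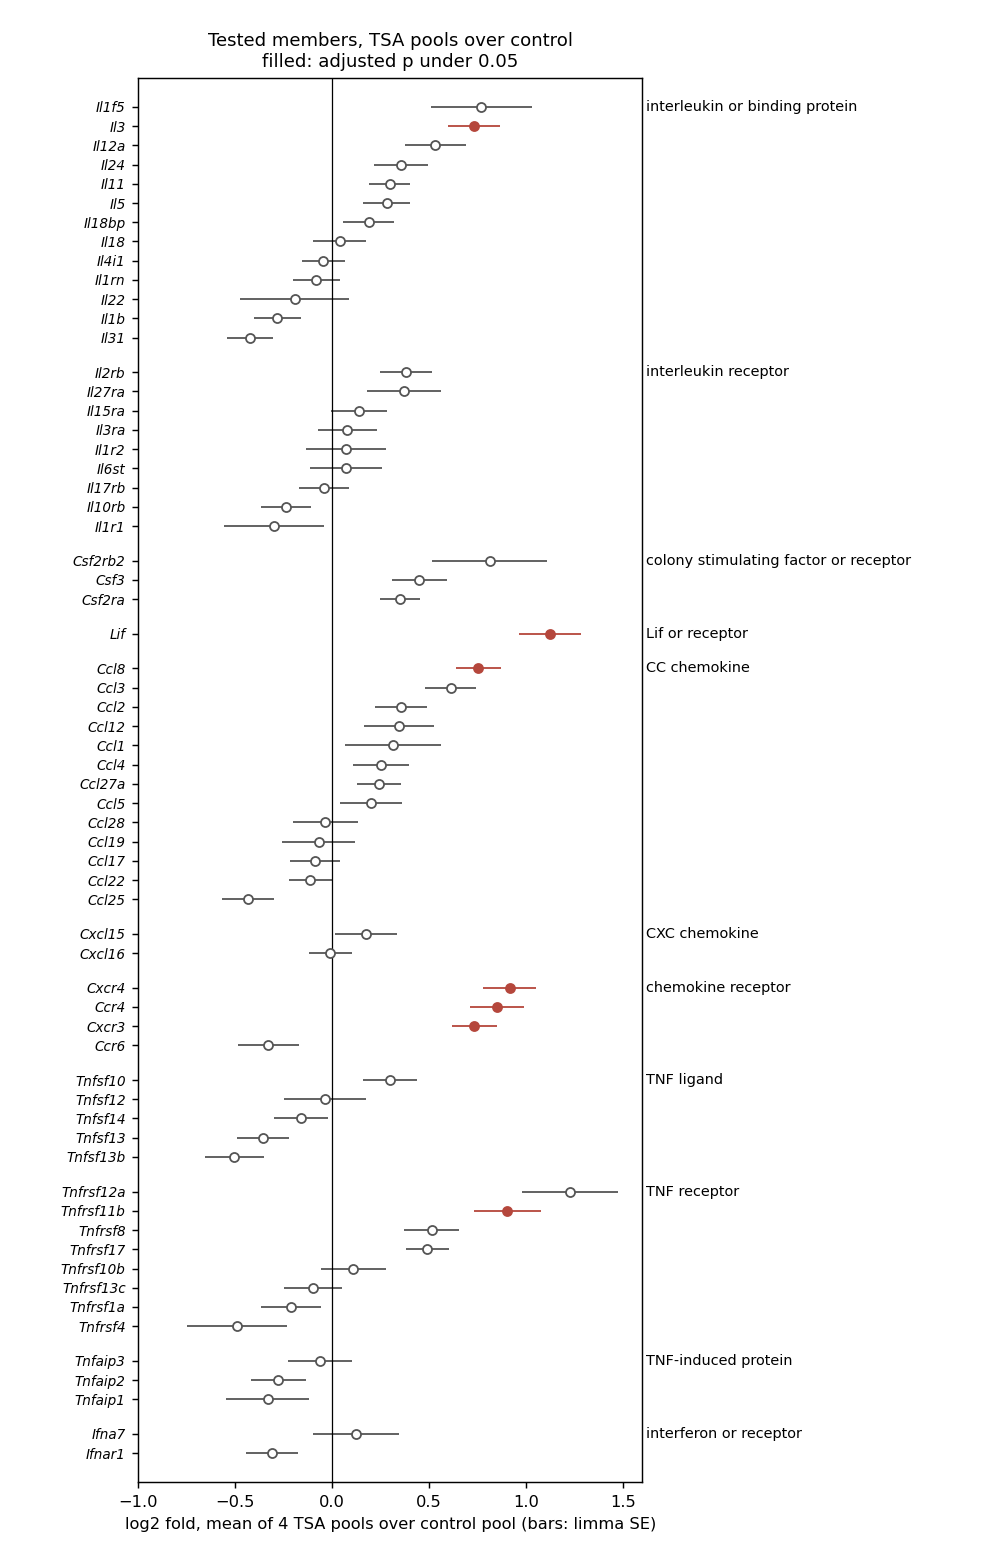
Log2 fold of the mean of the 4 TSA pools over the control pool for the 63 tested genes, grouped by role, with bars for limma's standard error; filled points passed an adjusted p under 0.05. The 7 filled points lie between 0.73 and 1.12, and Tnfrsf12a, at 1.23, is open.

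The size rule named 5 genes at 1 or more times, all higher, where it named 2.51% of all tested probes higher and 2.06% lower. At 2.5 h they were Lif and Tnfrsf12a, where 0.674% of all probes were called higher. At 5 h they were Lif, Csf2rb2 and Tnfrsf12a (1.21% of all probes), at 7.5 h Tnfrsf11b and Il1f5 (1.01%), and at 10 h Lif, Csf2rb2 and Tnfrsf12a (1.23%). No tested gene of these families was called lower at any time, but the filter left out dim ones that would have been: Cxcl12, Cxcl1, Tnfaip6 and Tnfaip8l1. Csf2rb2 and Tnfrsf12a, with Ccl8 and Il12a, were the 4 tested genes whose control level was under the filter limit of 0.207, so they were tested only because of their TSA arrays. Over all probes, 0.243% were called lower at 2.5 h, 0.337% at 5 h, 0.903% at 7.5 h and 1.44% at 10 h.

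Lif, leukaemia inhibitory factor, is a ligand of the interleukin 6 family that keeps mouse embryonic stem cells undifferentiated. Its intensity was 0.586 and 0.333 in the control pool, 1.25 and 0.917 at 2.5 h, 1.03 and 0.836 at 5 h, 0.840 and 0.823 at 7.5 h and 0.996 and 1.08 at 10 h. All 8 TSA arrays were above both control arrays, although the control arrays differed by a larger ratio than the arrays of any TSA pool did. The log2 fold of TSA pools over control was 1.12 ± 0.16 (limma SE, 4 of 4 TSA pools higher, adjusted p = 0.0439), and it was 1.28 at 2.5 h, 1.07 at 5 h, 0.91 at 7.5 h and 1.23 at 10 h. With the first control array alone the log2 fold was 0.72 (limma adjusted p = 0.0507), and with the second alone it was 1.53. Probes with ID numbers within 50 of that of Lif had a median log2 fold of 0.27.

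The receptor pair through which Lif signals did not pass. Lifr, the Lif-specific chain, was below the filter, at 0.126 to 0.233 on the TSA arrays and 0.278 and 0.191 on the control arrays, so the groups overlapped. Il6st, the shared chain gp130, had probes that disagreed in brightness. The probe numbered 10279 gave 1.14 to 1.61 on the TSA arrays and 1.30 and 1.23 on the control arrays (log2 fold 0.07 ± 0.19, limma adjusted p = 0.829), and the probe numbered 418 was below the filter on every array.

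Il3, a growth factor made mainly by T cells and mast cells that acts on blood cell precursors, rose. Its intensity was 0.628 and 0.589 in the control pool, 1.22 and 0.926 at 2.5 h, 1.11 and 0.829 at 5 h, 0.985 and 0.872 at 7.5 h and 0.950 and 1.27 at 10 h. Every TSA array was above both control arrays, and the arrays of each TSA pool differed from each other by more than the control arrays did. The log2 fold was 0.73 ± 0.14 (limma adjusted p = 0.0478, 4 of 4 TSA pools higher).

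Il3 acts through Il3ra and a beta chain, and in mice Csf2rb2 is a beta chain used by Il3 alone. Csf2rb2 had 0.137 and 0.193 in the control pool, 0.255 and 0.247 at 2.5 h, 0.323 and 0.335 at 5 h, 0.209 and 0.218 at 7.5 h and 0.407 and 0.351 at 10 h. The 10 h and 5 h pools were the highest and the control arrays the lowest, and the log2 fold of 0.81 ± 0.30 did not pass (limma adjusted p = 0.14). At single times it was 1.01 at 5 h and 1.22 at 10 h. Csf2rb, the common beta chain and a near-identical copy whose probe may share signal with it, was below the filter, at 0.0927 to 0.160 on the TSA arrays and 0.0571 and 0.0691 on the control arrays. Il3ra, the alpha chain, gave 0.536 to 0.745 on the TSA arrays and 0.585 and 0.563 on the control arrays, which overlapped.

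Among the colony stimulating factors, which drive the growth and maturation of macrophages and granulocytes, 3 of 7 probes with values were tested and none passed. Csf3, the granulocyte factor G-CSF, had 7.44 to 10.8 on the TSA arrays and 6.31 and 7.09 on the control arrays, with all TSA arrays above (log2 fold 0.45 ± 0.14, limma adjusted p = 0.108). Csf2ra, the alpha chain of the receptor for Csf2, had 1.69 to 2.00 against 1.22 and 1.63 in the control (log2 fold 0.35 ± 0.10, limma adjusted p = 0.0966). Csf1, which maintains macrophages, and Csf2 were below the filter. Csf1 gave 0.122 to 0.258 on the TSA arrays and 0.120 and 0.199 on the control arrays, and Csf2 gave 0.0366 to 0.110 against 0.0902 and 0.0668 in the control. The TSA and control arrays overlapped for both.

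**Figure D2:**
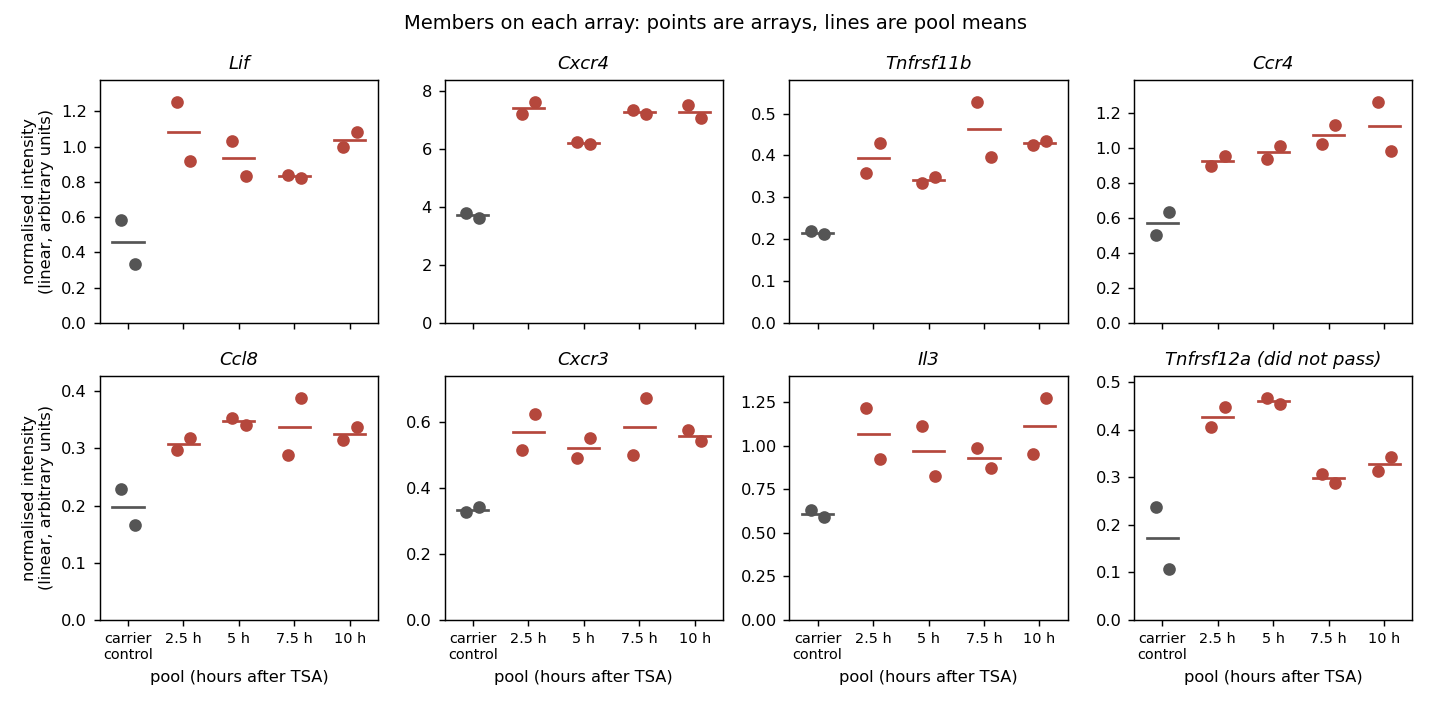
Linear normalised intensity of the 7 genes that passed and of Tnfrsf12a, which did not, on each of the 10 arrays, with the control pool on the left and the TSA pools by hour; points are arrays and lines are pool means. In all 8 panels every TSA array lies above both control arrays, and the control arrays of Lif and Tnfrsf12a lie far apart.

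Of the chemokine receptors, 4 of the 14 probes with values were tested and 3 passed, all higher: Cxcr4, Cxcr3 and Ccr4. Cxcr4 is the receptor of Cxcl12 and guides stem cells to their niches. Its intensity was 3.81 and 3.63 in the control pool, 7.21 and 7.63 at 2.5 h, 6.24 and 6.18 at 5 h, 7.33 and 7.21 at 7.5 h and 7.52 and 7.06 at 10 h. No TSA array came within the range of the control arrays, and the log2 fold was 0.92 ± 0.14 (limma adjusted p = 0.0439, 4 of 4 TSA pools higher). The fold was lowest at 5 h, and it was 0.99 at 2.5 h, 0.74 at 5 h, 0.97 at 7.5 h and 0.97 at 10 h.

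Ccr4, a receptor of helper and regulatory T cells for Ccl17 and Ccl22, had 0.505 and 0.637 in the control pool, 0.899 and 0.957 at 2.5 h, 0.940 and 1.01 at 5 h, 1.02 and 1.13 at 7.5 h and 1.27 and 0.986 at 10 h. All TSA arrays were above both control arrays, and the log2 fold was 0.85 ± 0.14 (limma adjusted p = 0.0474). Cxcr3, the T cell receptor for the interferon-induced chemokines Cxcl9, Cxcl10 and Cxcl11, had 0.327 and 0.340 in the control pool, 0.514 and 0.624 at 2.5 h, 0.491 and 0.549 at 5 h, 0.498 and 0.670 at 7.5 h and 0.574 and 0.541 at 10 h. Here too every TSA array was above the control arrays, and the log2 fold was 0.73 ± 0.11 (limma adjusted p = 0.0467). Ccr6, the receptor of Ccl20, was the other tested receptor and went the other way without passing, at 0.391 to 0.527 on the TSA arrays and 0.563 and 0.561 on the control arrays (log2 fold -0.33 ± 0.16, limma adjusted p = 0.22).

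The probes of Cxcr3, Cxcr4 and Ccr4 carry neighbouring ID numbers, 7065, 7071 and 7083, and the probes around them were also higher on balance. Within 50 ID numbers, in windows that largely overlap, the median log2 fold was 0.23 around Cxcr3, 0.25 around Cxcr4 and 0.26 around Ccr4. It was 0.00 around Il3, -0.13 around Ccl8 and -0.02 around Tnfrsf11b. Of these neighbours, which are largely the same probes for the 3 receptors, 5 of 49 around Cxcr3, 5 of 52 around Cxcr4 and 5 of 53 around Ccr4 passed higher in limma. So did 6 of 59 around Il3, 7 of 68 around Lif, 3 of 71 around Ccl8 and 1 of 49 around Tnfrsf11b. The share over all tested probes was 2.74%. When each array was centred on the running median of 41 probes by ID number, an alternative chosen after seeing the data, all 3 receptors lost the call. Cxcr4 then had a log2 fold of 0.58 ± 0.12 (limma adjusted p = 0.0623), Ccr4 0.52 ± 0.13 (limma adjusted p = 0.0758) and Cxcr3 0.45 ± 0.10 (limma adjusted p = 0.0728). Lif, Il3, Ccl8 and Tnfrsf11b kept theirs at 0.84, 0.68, 0.88 and 0.89 (limma adjusted p = 0.0395 each). With a coarser centring in 50 bins of ID numbers all 7 passed (limma adjusted p between 0.0335 and 0.0466). What the ID numbers stand for was not given in the sources used here, and their part in the receptor result was not tested further.

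**Figure D3:**
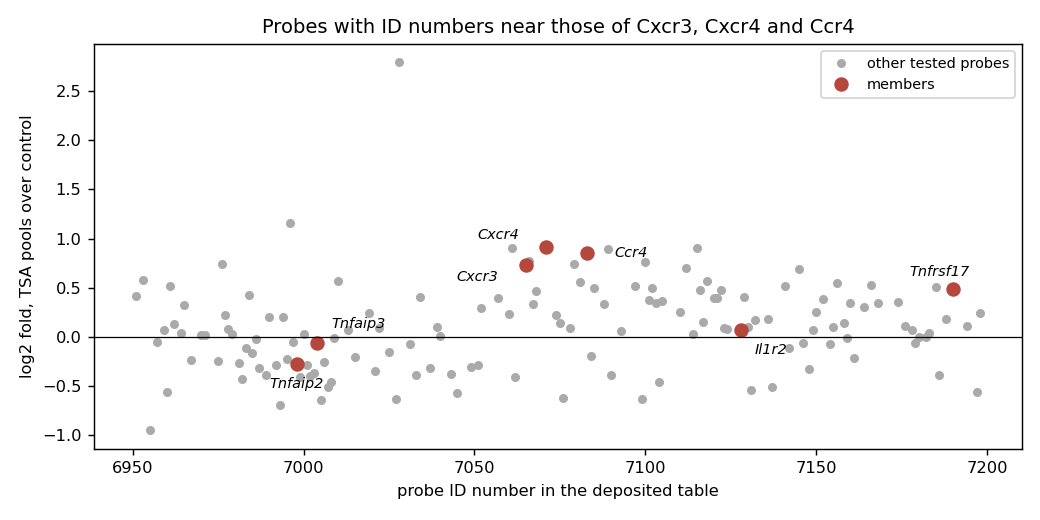
Log2 fold of TSA pools over control (vertical axis) against the probe ID number (horizontal axis) for tested probes with ID numbers near those of Cxcr3, Cxcr4 and Ccr4; genes of the cytokine families are marked and the others are grey. The 3 receptors lie at 0.73, 0.92 and 0.85, above the median of their neighbours, which is between 0.23 and 0.26. Single neighbours also reach such values, among them Asgr1 at 0.91, Cst7 at 0.90 and Apoa1 at 2.79. Apoa1 belongs to the liver markers, whose sum was far higher in the 5 h pool than in the other pools.

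The ligands of these receptors gave no call. Cxcl12, the ligand of Cxcr4, was below the filter, with 0.236 and 0.225 in the control pool, 0.144 and 0.183 at 2.5 h, 0.121 and 0.109 at 5 h, 0.0809 and 0.0629 at 7.5 h and 0.0859 and 0.117 at 10 h. All 8 TSA arrays were below both control arrays, but only the control arrays were above the filter limit of 0.207, and no test was made. The log2 fold was -0.51 at 2.5 h, -1.004 at 5 h, -1.69 at 7.5 h and -1.20 at 10 h. Ccl17 and Ccl22 overlapped between the groups, with Ccl17 at 0.457 to 0.646 on the TSA arrays and 0.616 and 0.558 on the control arrays, and Ccl22 at 2.24 to 2.67 against 2.42 and 2.93 in the control. Cxcl9, a ligand of Cxcr3, was near the floor of the array, at 0.0268 to 0.0927 on the TSA arrays and 0.0134 and 0.0196 on the control arrays. So were Cxcl10, at 0.0145 to 0.0594 against 0.0859 and 0.0695 in the control, and Cxcl11, at 0.0217 to 0.0684 against 0.0449 and 0.0213. These dim ligands of Cxcr3 had no common direction. Ccl17 was named after its values were seen, as were Cxcl1, Tnfaip6, Tnfaip8l1, Cxcl9, Cxcl10, Cxcl11, Csf2rb and, further on, Il24, Il31, Ccl12, Tnfrsf4 and Tnfrsf22.

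Of the CC chemokines, which attract monocytes, lymphocytes and granulocytes, 13 of 19 probes with values were tested and Ccl8 alone passed. All 8 TSA arrays lay above both control arrays for 6 of the 13, Ccl8 among them, and below for 1. The shares over all tested probes were 22.2% and 23%. Ccl8 is a monocyte chemoattractant that signals through Ccr8 in mice. Its intensity was 0.229 and 0.166 in the control pool, 0.297 and 0.319 at 2.5 h, 0.353 and 0.341 at 5 h, 0.288 and 0.388 at 7.5 h and 0.314 and 0.338 at 10 h. The TSA arrays did not overlap the control arrays, 1 of which was under the filter limit, and the log2 fold was 0.75 ± 0.12 (limma adjusted p = 0.0463, 4 of 4 TSA pools higher). The control level of Ccl8, 0.195, was also under the limit, so Ccl8 was tested only because of its TSA arrays. With an offset of 0.215 added before the log, which damps dim probes, the log2 fold of Ccl8 was 0.40 (limma adjusted p = 0.0601) and that of Tnfrsf11b 0.52 (limma adjusted p = 0.0573).

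The inflammatory chemokines near Ccl8 in function gave smaller differences that did not pass. Ccl3, a macrophage inflammatory protein, had 0.322 to 0.408 on the TSA arrays and 0.184 and 0.299 on the control arrays (log2 fold 0.61 ± 0.13, limma adjusted p = 0.0563). Ccl2, the main attractant of monocytes, had 0.755 and 0.838 in the control pool, 0.976 and 0.932 at 2.5 h, 0.973 and 0.919 at 5 h, 1.11 and 1.07 at 7.5 h and 1.07 and 1.11 at 10 h. Its TSA arrays were all above the control arrays, and the later pools were the highest (log2 fold 0.36 ± 0.14, limma adjusted p = 0.148). Ccl4, a close relative of Ccl3, had log2 folds of 0.13 at 2.5 h, 0.15 at 5 h, 0.30 at 7.5 h and 0.42 at 10 h (limma adjusted p = 0.295). Ccl12, a mouse chemokine close to Ccl2, had 0.20 at 2.5 h and 0.64 at 10 h (limma adjusted p = 0.255).

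The tissue chemokines behaved differently from one another. Ccl25, which draws lymphocytes to thymus and gut, was lower on every TSA array, at 0.900 to 1.16, than on the control arrays, at 1.43 and 1.44, and did not pass (log2 fold -0.44 ± 0.13, limma adjusted p = 0.104). Ccl27a, a skin chemokine with near-identical gene copies that its probe may not tell apart, had 11.1 to 12.7 on the TSA arrays and 8.84 and 11.1 on the control arrays (log2 fold 0.24 ± 0.11, limma adjusted p = 0.213). Ccl28, a mucosal chemokine, overlapped, at 6.24 to 8.47 against 7.77 and 7.52 in the control. Only 2 of 10 CXC chemokines with values were tested, Cxcl15 and Cxcl16, and their log2 folds were 0.18 ± 0.16 and -0.01 ± 0.11 (limma adjusted p = 0.5 and 0.968).

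In the TNF receptor family 8 of 15 probes with values were tested, 1 passed (higher) and the median log2 fold was 0.30. Tnfrsf11b is osteoprotegerin, a secreted decoy that binds Tnfsf11 (RANKL) and keeps it from its receptor. Its intensity was 0.219 and 0.211 in the control pool, 0.358 and 0.430 at 2.5 h, 0.334 and 0.348 at 5 h, 0.528 and 0.397 at 7.5 h and 0.425 and 0.434 at 10 h. The control arrays agreed closely and all TSA arrays were higher, and the log2 fold came to 0.90 ± 0.17 (limma adjusted p = 0.0484, 4 of 4 TSA pools higher). The control level was close to the filter limit.

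Tnfrsf12a, the Fn14 receptor of Tnfsf12 (TWEAK), had the largest fold of the 63 genes and missed the threshold. Its intensity was 0.237 and 0.106 in the control pool, 0.405 and 0.447 at 2.5 h, 0.466 and 0.455 at 5 h, 0.307 and 0.288 at 7.5 h and 0.314 and 0.343 at 10 h. The 2.5 h and 5 h pools were the highest, but the control arrays differed more than 2-fold, and the log2 fold was 1.23 ± 0.25 (limma adjusted p = 0.0509). Its ligand Tnfsf12 gave 0.342 to 0.557 on the TSA arrays and 0.472 and 0.512 on the control arrays, which overlapped.

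Tnfrsf17, the BCMA receptor of B lineage cells, was higher on every TSA array, at 4.90 to 6.07, than on the control arrays, at 3.74 and 4.02 (log2 fold 0.49 ± 0.11, limma adjusted p = 0.0602). Its ligands lay on the other side: Tnfsf13 (APRIL) had 0.492 to 0.628 against 0.739 and 0.666 in the control, and Tnfsf13b (BAFF) had 0.160 to 0.229 against 0.274 and 0.274. For both ligands all TSA arrays were below the control arrays, and neither passed (limma adjusted p = 0.145 and 0.1). Tnfrsf13c, the BAFF receptor, overlapped (log2 fold -0.10 ± 0.15). Tnfrsf8, the CD30 receptor of activated lymphocytes, had 0.599 to 0.799 on the TSA arrays and 0.468 and 0.461 on the control arrays (log2 fold 0.51 ± 0.14, limma adjusted p = 0.0839). Tnfrsf4, the OX40 receptor of activated T cells, was lower on every TSA array, at 0.131 to 0.288, than on the control arrays, at 0.319 and 0.296 (log2 fold -0.49 ± 0.26, limma adjusted p = 0.261).

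Tnf itself was near the floor, at 0.0188 to 0.141 on the TSA arrays and 0.0268 and 0.0413 on the control arrays, and so was its second receptor Tnfrsf1b, at 0.0166 to 0.0408 against 0.0652 and 0.0374. No direction can be read from either. Tnfrsf1a, the widely expressed TNF receptor, gave log2 folds of -0.10 at 2.5 h, -0.06 at 5 h, -0.32 at 7.5 h and -0.36 at 10 h (limma adjusted p = 0.409). The other tested ligands were Tnfsf10, the death ligand TRAIL, and Tnfsf14, LIGHT, with log2 folds of 0.30 ± 0.14 and -0.16 ± 0.14 (limma adjusted p = 0.217 and 0.491).

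Of the genes named for their induction by TNF, 3 of 6 were tested and all had log2 folds below 0. Tnfaip3, the NF-κB inhibitor A20, was at -0.06 ± 0.17, and Tnfaip2 at -0.28 ± 0.14. Tnfaip1 had 0.553 and 0.619 in the control pool, 0.551 and 0.551 at 2.5 h, 0.458 and 0.491 at 5 h, 0.421 and 0.568 at 7.5 h and 0.352 and 0.377 at 10 h. It was lowest at 10 h, and its slope, -0.06 ± 0.02 per hour on the log2 scale, did not pass the trend test (limma adjusted p = 0.0909).

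Besides Il3, none of the other 12 tested interleukins and binding proteins passed. Il1b, a central inflammatory cytokine, had 2.25 and 2.03 in the control pool, 1.58 and 1.64 at 2.5 h, 1.83 and 1.81 at 5 h, 1.72 and 1.84 at 7.5 h and 1.84 and 1.80 at 10 h. All TSA arrays were below both control arrays (log2 fold -0.28 ± 0.12, limma adjusted p = 0.181). Il1rn, which blocks the Il1 receptor, had a log2 fold of -0.08 ± 0.12, and Il1r1, the signalling receptor, -0.30 ± 0.26 with overlapping arrays. Il1f5, the antagonist of the interleukin 36 receptor, had 0.214 and 0.296 in the control pool, 0.352 and 0.390 at 2.5 h, 0.344 and 0.373 at 5 h, 0.545 and 0.621 at 7.5 h and 0.413 and 0.468 at 10 h. The 7.5 h pool was the highest, and the log2 fold over all times was 0.77 ± 0.26 (limma adjusted p = 0.123).

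Il12a, the p35 subunit of interleukin 12, had 0.233 to 0.373 on the TSA arrays and 0.177 and 0.229 on the control arrays (log2 fold 0.53 ± 0.16, limma adjusted p = 0.0955). Il31, a T cell cytokine linked to itch, was lower on every TSA array, at 1.42 to 1.67, than on the control arrays, at 2.17 and 1.96 (log2 fold -0.42 ± 0.12, limma adjusted p = 0.0866). Il5, an eosinophil growth factor, and Il11, of the interleukin 6 family, had small positive log2 folds of 0.28 ± 0.12 and 0.30 ± 0.11 (limma adjusted p = 0.182 and 0.136). Il24 had 0.35 ± 0.14, and Il4i1, an amino acid oxidase induced by interleukin 4, -0.04 ± 0.11 (limma adjusted p = 0.153 and 0.822).

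None of the 9 tested interleukin receptor chains passed. Il2rb, a chain of the receptors for interleukins 2 and 15, had 4.52 to 5.78 on the TSA arrays and 3.83 and 4.03 on the control arrays, with all TSA arrays above (log2 fold 0.38 ± 0.14, limma adjusted p = 0.134). Il27ra, a receptor chain for interleukin 27, had 0.337 and 0.365 in the control pool, 0.348 and 0.382 at 2.5 h, 0.470 and 0.458 at 5 h, 0.482 and 0.525 at 7.5 h and 0.552 and 0.441 at 10 h. It was level with the control at 2.5 h and higher later, and its slope was 0.06 ± 0.02 per hour on the log2 scale (limma adjusted p = 0.0936). Il15ra had a log2 fold of 0.14 ± 0.14.

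The interferon system gave no call. Ifng was at the floor, at 0.00420 to 0.0581 on the TSA arrays and 0.0364 and 0.0111 on the control arrays, and its receptor chain Ifngr1 was below the filter. Ifnar1, the receptor chain for type I interferons, was below both control arrays on every TSA array, at 1.28 to 1.59 against 1.75 and 1.84 in the control (log2 fold -0.31 ± 0.13, limma adjusted p = 0.188). Ifna7, a type I interferon whose probe may also read other alpha interferons, had -0.05 at 2.5 h and 0.49 at 10 h (limma adjusted p = 0.742).

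**Figure D4:**
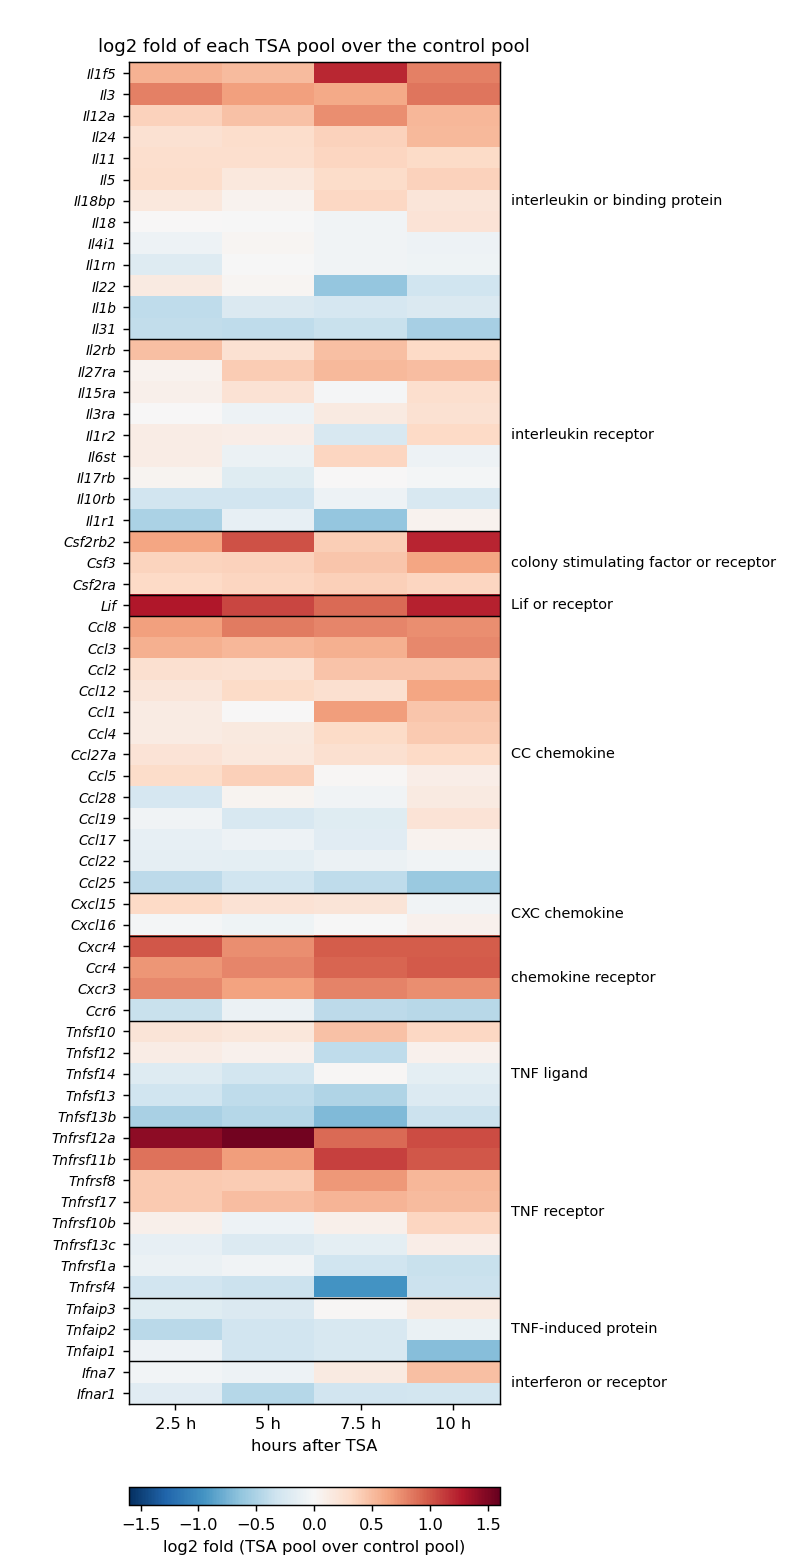
Log2 fold of each TSA pool over the control pool for the 63 tested genes (rows, grouped by role) at 2.5, 5, 7.5 and 10 h (columns, left to right); red is higher after TSA and blue lower. The rows of Lif, Cxcr4, Ccr4, Cxcr3 and Tnfrsf11b are red at all 4 times, and no row passes a log2 fold of -1.

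No gene of these families passed the trend over hours, with the control placed at 0 h although it was killed at 10 h, where 2.01% of all tested probes did. At an unadjusted p under 0.05, limma gave 24 of the 63 genes a slope (20 rising and 4 falling), against 25.1% of all probes (12.7% rising and 12.4% falling). Ccr4 came nearest, at 0.09 ± 0.02 per hour on the log2 scale (limma adjusted p = 0.0901).

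Below the filter lay 67 probes, and 51 of them were under the filter limit on every array. The cytokines most often tied to inflammation were among them. Il6 gave 0.0722 to 0.116 on the TSA arrays and 0.0589 and 0.0798 on the control arrays, and Il1a 0.0571 to 0.145 against 0.0971 and 0.0892. Both overlapped. Without the filter, 11 of the 67 would have met the size rule at some time, 7 higher (10.4%) and 4 lower (5.97%), against 15.4% higher and 13.6% lower of all 2475 probes below the filter. Cxcl12 was the only one at 3 times. Tnfrsf22, a decoy receptor with a near-identical neighbour, Tnfrsf23, was higher on all TSA arrays, at 0.0487 to 0.139, than on the control arrays, at 0.0314 and 0.0329, but all of these values are dim.

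Genes that carry these signals inside the cell were read from lists chosen with earlier results of these data known. Of the JAK, STAT and SOCS genes, 16 of 21 with values were tested and none passed either test, with a median log2 fold of -0.09. Among these 16 the largest difference was that of Pias4, a SUMO ligase named as an inhibitor of STAT proteins (log2 fold -0.40 ± 0.20, limma adjusted p = 0.229). Stat5b, below the filter and not tested, was lower on all TSA arrays, at 0.124 to 0.263, than on the control arrays, at 0.346 and 0.317. Of the others below the filter, Pias3 and Cish were lower on all TSA arrays, Socs3 was higher on all, and Ptpn6 overlapped. Of the NF-κB, TNF and interleukin 1 signalling genes, 21 of 30 were tested. Tab1, a partner of the kinase TAK1, was the only one of them to pass against the control (log2 fold -0.96 ± 0.17, limma adjusted p = 0.0474). Over all tested probes, 0.795% passed lower. The intensity of Tab1 was 0.382 and 0.366 in the control pool and 0.0926 to 0.311 on the TSA arrays. Its 7.5 h arrays, at 0.311 and 0.0926, were far apart. Its 2.5 h arrays, at 0.191 and 0.163, were under the filter limit of 0.207, so its fold rests partly on dim values. All 8 TSA arrays were below both control arrays for 8 of the 21 and above for 4, against 23% below and 22.2% above of all tested probes. The trend calls that follow rest on the whole series and on the filter. In limma 0 of all probes passed when the control, 2.5 h or 10 h arrays were left out. The same held without the filter on dim probes, or when TSA had a term of its own. In the trend, Traf2, an adaptor of TNF receptors, fell by 0.14 ± 0.02 log2 units per hour and Rela, the p65 subunit of NF-κB, by 0.11 ± 0.02 (limma adjusted p = 0.0223 and 0.0268). Tirap, an adaptor of Toll-like receptors, rose by 0.14 ± 0.03 per hour (limma adjusted p = 0.049).

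Rela had 0.789 and 0.654 in the control pool, 0.545 and 0.516 at 2.5 h, 0.438 and 0.446 at 5 h, 0.417 and 0.410 at 7.5 h and 0.326 and 0.291 at 10 h. Each TSA pool was below the control and the 10 h pool was the lowest. Traf2 had 0.968 and 0.909 in the control pool, 0.616 and 0.674 at 2.5 h, 0.529 and 0.492 at 5 h, 0.642 and 0.365 at 7.5 h and 0.293 and 0.352 at 10 h. It too was lowest at 10 h, and its 7.5 h arrays were far apart.

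Of the interferon response genes, 11 of 29 with values were tested and none passed against the control. Irf3, which switches on type I interferon genes, fell in the same trend by 0.08 ± 0.01 log2 units per hour (limma adjusted p = 0.0459, lost in the same settings), with 2.54 and 2.28 in the control pool, 2.07 and 2.13 at 2.5 h, 1.72 and 1.61 at 5 h, 1.66 and 1.61 at 7.5 h and 1.46 and 1.26 at 10 h. The immunoproteasome subunits Psmb9 and Psmb8 had log2 folds of 0.75 ± 0.20 and 0.53 ± 0.12 (limma adjusted p = 0.0776 and 0.0623). Of cytokines and receptors outside the gene families named above, 17 of 35 were tested and none passed against the control. Tslp, an epithelial cytokine, rose in the trend by 0.07 ± 0.01 log2 units per hour (limma adjusted p = 0.0483, lost in the same settings), with 1.36 and 1.46 in the control pool, 1.52 and 1.59 at 2.5 h, 1.61 and 1.81 at 5 h, 2.02 and 2.02 at 7.5 h and 2.34 and 2.27 at 10 h. The pool mean was higher at each later time, and the 10 h pool was the highest.

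Markers of blood cells and of testis cells were read beside these results. In whole testis, a change in the number of cells of a type and a change in RNA per cell cannot be told apart. The summed intensity of 17 macrophage markers was 20.19 to 23.54 on TSA arrays and 21.97 to 23.33 on control arrays. That of 25 leukocyte and lymphocyte markers was 8.60 to 12.6 on TSA arrays and 8.24 to 8.62 on control arrays. It was highest at 7.5 h (12.6 and 11.7), and the TSA arrays outside the 5 h pool gave 8.94 or more. Below the filter were 15 of the 25, among them the pan-leukocyte marker Ptprc, at 0.0203 to 0.114 on TSA arrays and 0.0443 and 0.0535 on control arrays. Of the 10 tested, 7 had log2 folds above 0, with a median of 0.38. All 8 TSA arrays lay above both control arrays for 5 of the 10 and below for 1, against 22.2% and 23% of all tested probes. In limma 2 passed against control, both higher, where 2.74% of all tested probes passed higher. Laptm5 and Cd22, which are typical of blood cells, rose (log2 fold 1.15 ± 0.13 and 0.58 ± 0.11, limma adjusted p = 0.04 and 0.0485), and in the trend Cd7 and the macrophage receptor Siglec1 rose (0.12 ± 0.02 and 0.09 ± 0.02 log2 units per hour, limma adjusted p = 0.049 each, lost in the same settings). Of the 12 tested macrophage markers 5 had log2 folds above 0, with a median of -0.02, and Fcgr3, an Fc receptor, was lower on every TSA array, at 3.39 to 3.88, than on the control arrays, at 4.89 and 4.72. Cd52, a surface protein of lymphocytes and of the epididymis, was lower without passing (log2 fold -3.07 ± 0.62, limma adjusted p = 0.0521). The part of these cells in the higher Cxcr4, Cxcr3, Ccr4, Ccl8 and Il3 values was not tested.

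The summed testis cell markers overlapped between TSA and control arrays. Germ cell markers summed to 1047 to 1119 on TSA arrays and 1073 to 1087 on control arrays, Sertoli and peritubular markers 63.8 to 74.82 on TSA arrays and 66.03 to 72.81 on control arrays, and Leydig markers 125 to 161.5 on TSA arrays and 125.7 to 131.9 on control arrays.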

How the data were processed

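Arrays were CodeLink 1-channel (Cy5). The authors deposited a linear intensity per probe, per the labels' value table. The sorted values of the 10 arrays were identical (largest difference 0), as after quantile normalisation, with a range of 4e-04 to 249.5, and 115 of 10012 probes were empty. How arrays were scanned, background-corrected, flagged and normalised was not given in the sources used here.

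Intensities under the 5th percentile (0.0364) were raised to it, log2 was taken, arrays were set to a common median, and the lowest 25% of probes by mean (mean intensity below 0.207) were left out. Pool means were compared with limma 3.58.1 (R 4.3.3), with 3 residual degrees of freedom and two-sided p-values adjusted by Benjamini-Hochberg over all 7422 tested probes. The single control pool was assumed to vary as much as TSA pools do. For the trend, the control stood at 0 h. The p-values measure only the spread between these pools. The script was tested on simulated data. Figures used matplotlib 3.10.9.

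Members, lists and tests were chosen with earlier results of these data known. Genes were named if they passed a test, met the size rule, had the up to 4 largest mean intensities or 3 largest folds of their role, or belonged to 20 named in advance. Csf1r of these was not analysed here. Array numbers did not pair arrays across pools (correlation of deviations between -0.187 and 0.14, 10 pairs). Alternatives covered the filter, floor, offset, centring by probe ID number, probes per gene, arrays and pools left out, fold limits, fits on 10 arrays and eBayes settings.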

Additional observations from a re-analysis of the deposited data

Results flagged for a closer look

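For each of these 5 genes, both arrays of at least 1 TSA pool lay above both control arrays and both arrays of at least 1 other TSA pool lay below them. The difference between the times was not tested. Ccl28 had a log2 fold over control of -0.27 at 2.5 h, 0.046 at 5 h and 0.14 at 10 h. Cxcl15, a lung chemokine in mice, had 0.32 at 2.5 h, 0.23 at 5 h and 0.21 at 7.5 h, and -0.054 at 10 h. Tnfsf12 had 0.12 at 2.5 h, 0.067 at 5 h, -0.41 at 7.5 h and 0.071 at 10 h. Il6st, at the probe numbered 10279, had 0.12 at 2.5 h, -0.092 at 5 h and 0.35 at 7.5 h. Il3ra had -0.084 at 5 h, 0.15 at 7.5 h and 0.25 at 10 h. Such opposed pools occurred for 6 of the 63 tested genes (9.52%, Ccl19 being the sixth) and for 14.3% of all tested probes.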

How the results depend on the processing

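The limits come first from the design: 1 pool a group, a control killed at 10 h, and no flags for probes above background, so dim genes near the filter limit have uncertain folds. All 7 genes called in TSA pools stayed higher under every alternative run for them (24 each, 25 for Cxcr4), while 10 to 14 of these kept the call. Leaving out arrays or pools could not have reversed this direction, as every TSA array lay above both control arrays for the 7 genes. Every run used the same control pool. With an array or pool left out, only 2 to 5 of 14 runs kept the call, against 8 or 9 of the other 10 or 11. Those others include fits that took the 10 arrays as replicates. Without the filter 0 of the family genes passed against control (1 of all probes), with the lowest 50% of probes left out 3 passed (573 of all), with the running median of 41 probes by ID number 4 (178 of all), and with eBayes trend and robust on 10 (795 of all), against 7 (262 of all) as reported. The size rule named 2 genes at 2.5 h, 3 at 5 h, 2 at 7.5 h and 3 at 10 h. Without the filter it named 6 at 5 h (355 of all 9897 probes), 9 at 7.5 h (554), of which 4 were lower, and 7 at 10 h (458). With the lowest 50% of probes left out it named 0 at each time (16 to 73 of all). It also named 0 with the offset (18 to 71 of all) and at 3-fold (12 to 42 of all). At 1.5-fold it named 9 at 2.5 h (562 of all 7422), 9 at 5 h (730), 13 at 7.5 h (876) and 15 at 10 h (1221). Centring in 50 bins of ID numbers left 1 at 5 h (103 of all). The running median left 1 at 2.5 h (54 of all), 1 at 5 h (100), 1 at 7.5 h (129) and 0 at 10 h (192). Leaving out single arrays or pools gave 0 to 3 genes at 2.5 h, 1 to 3 at 5 h, 2 to 5 at 7.5 h and 3 to 5 at 10 h by the size rule, 0 to 10 in TSA pools against control and 0 to 1 in the trend. Against control, 0 passed with any 1 TSA pool left out, where 3 to 7 of all probes did. Also 0 passed without the second 2.5 h array (5 of all), the first or second 7.5 h array (6 and 30) or the first 10 h array (7). Then 2 passed without the first 2.5 h array (51 of all) or the second 5 h array (56). Without the second 10 h array 4 passed (135 of all), and without the second control array 10 (495). By the size rule, 0 were named at 2.5 h (81 of all) and 1 at 5 h (128 of all) without the second control array. At 7.5 h it named 5 without the first control array or the second 7.5 h array and 4 without the second control array, and at 10 h 5 without the first 10 h array. The 10 duplicate arrays taken as replicates, which understates the spread, gave 30 genes against control (2660 of all probes) and 23 in the trend (2353 of all) without a replicate block, and 27 (2388 of all) and 19 (2111 of all) with the array number as a replicate block. The array numbers gave no pairing. The trend, 149 of all probes as reported, gave 0 of all without the filter, without the control, 2.5 h or 10 h pool, or with a term for TSA, 41 with the 5 h arrays left out and 29 with those at 7.5 h left out. With the pool as a random block 9 passed against control (1044 of all), and Lif and Il3 did not (limma adjusted p = 0.0506 and 0.083).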

Other observations

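Signalling proteins outside the gene families described differed in both directions on the TSA arrays, without passing against the control. Of the 17 tested cytokines and receptors among them, 14 had log2 folds above 0, with a median of 0.15. All 8 TSA arrays lay above both control arrays for 3 of the 17 and below for 2, against 22.2% and 23% of all tested probes. Mif, macrophage migration inhibitory factor, had an intensity of 10.0 to 11.9 on TSA arrays and 7.74 and 8.10 on control arrays (log2 fold 0.49 ± 0.13, limma adjusted p = 0.0752). Ctf1, cardiotrophin 1, a relative of Lif that also signals through Il6st, had 1.20 to 1.45 on TSA arrays and 1.00 and 0.919 on control arrays (log2 fold 0.49 ± 0.12, limma adjusted p = 0.0663). For both genes all 8 TSA arrays were above both control arrays. Kit, the receptor of stem cell factor, and Fas, a death receptor, were below both control arrays on all 8 TSA arrays (log2 fold -0.41 ± 0.16 and -0.38 ± 0.14, limma adjusted p = 0.159 and 0.134). Eda, ectodysplasin, a TNF family ligand, overlapped the control at 2.5 h and had log2 folds of 0.73 at 5 h, 0.48 at 7.5 h and 0.74 at 10 h (limma adjusted p = 0.233). The interferon-induced kinase Eif2ak2 had a log2 fold of 0.56 (limma adjusted p = 0.0622). Its arrays at 2.5 h and 7.5 h overlapped those of the control.

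Socs3, a feedback inhibitor that Lif and related cytokines induce, was below the filter, with an intensity of 0.0960 to 0.121 on TSA arrays and 0.0678 and 0.0635 on control arrays. All TSA arrays were above the control arrays, and no test was made at this brightness. Cish, another such inhibitor and also below the filter, was lower on all TSA arrays, at 0.0785 to 0.150, than on the control arrays, at 0.185 and 0.186. Kit, Fas, Socs3 and Cish were chosen after their values were seen, as were Stat5b, Pias3 and Ptpn6 above. The neutrophil gene S100a8 was at 1.97 and 1.90 on the 7.5 h arrays and at or under 0.328 on all others, and its part in the 7.5 h values of the cytokine genes was not tested.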
